A study of Rattus norvegicus with 64 samples.

Results

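The dorsal hippocampus (HPCd) of 16 male rats, numbered C91 to C106, was compared between 8 rats given acesulfame potassium (ACE-K) and 8 control rats (CTL) given water. They were chosen by sex and brain region, and they make up 16 of the 64 samples of the series, which also holds the HPCd of 16 females and the nucleus accumbens (ACB) of the same 32 rats. All were Sprague Dawley rats with chow and water at hand. ACE-K rats drank 15 mg/kg of the sweetener daily as a 0.1% w/v solution from postnatal day (PN) 26 until PN 80, when brains were taken. CTL rats were given reverse osmosis water in its place. On the day of collection chow and the ACE-K sippers were removed beforehand, and all rats were anesthetized with ketamine, xylazine and acepromazine. The RNA came from tissue punches aimed at the CA1 field and the dentate gyrus, so each value is a mix of neurons, glia and vessels, and in such bulk samples fewer cells of a type and less RNA per cell cannot be told apart. The question was whether drinking the sweetener from PN 26 to PN 80 went with a different hippocampal transcriptome at PN 80. As intake ran until the day of collection, current intake and a lasting effect of adolescent intake cannot be told apart.

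The hippocampus is needed for memory of places and events. Granule neurons of the dentate gyrus receive cortical input and pass it on toward the pyramidal neurons of CA1, which form the main output. ACE-K is a sweetener without calories that binds the sweet taste receptor of the tongue and is absorbed in the gut and excreted largely as it was eaten.

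The counts name genes by Ensembl ID only, and these IDs could not be paired with symbols here. The differences are therefore described by gene ID, by expression level and by rat. Hippocampal cell type markers, collagen genes and synaptic genes, which would be looked up by symbol, were not analysed here, so the labelled tissue was not checked against its markers.

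Reads counted on genes ranged from 16078642 to 27651766 per rat. The mean was 21992013 in ACE-K rats and 19726865 in CTL rats (exact permutation test, 2-sided, p = 0.262, n = 8 per group). Each rat had between 17247 and 18301 gene IDs with at least 1 count. ACE-K rats had 17810 ± 296 detected IDs and CTL rats 17567 ± 246 (SD, n = 8 each, exact permutation p = 0.0960, adjusted p = 0.698 over the 8 measures tested). Body weight was 354 ± 17.2 g in ACE-K and 368 ± 21.4 g in CTL rats (SD, n = 8 each), a difference of -13.5 g that did not pass the test (exact permutation p = 0.183, adjusted p = 0.698). The labelled sexes were apart in all 32 HPCd libraries, since 5 IDs were at least 10-fold higher in every male than in every female and 2 IDs the reverse. These IDs were found by the labels and not paired with symbols, so they do not show which of the groups is male.

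The largest variation between the 16 hippocampi did not run along treatment. The first principal component held 65.7% of the variance (500 genes with the highest variance), and on it the CTL rats C93 (14.9) and C101 (17.5) and the ACE-K rat C102 (12.3) stood apart from the other 13 rats, which lay between -8.40 and 4.82. Group means on this component did not differ beyond the spread between rats (exact permutation test, p = 0.776, n = 8 per group). On the second component, with 17.6% of the variance, the ACE-K rat C98 was at -12.3, whereas the other ACE-K rats were between -1.79 and 3.71 (group difference, exact permutation p = 0.751, n = 8 per group).

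**Figure D1:**
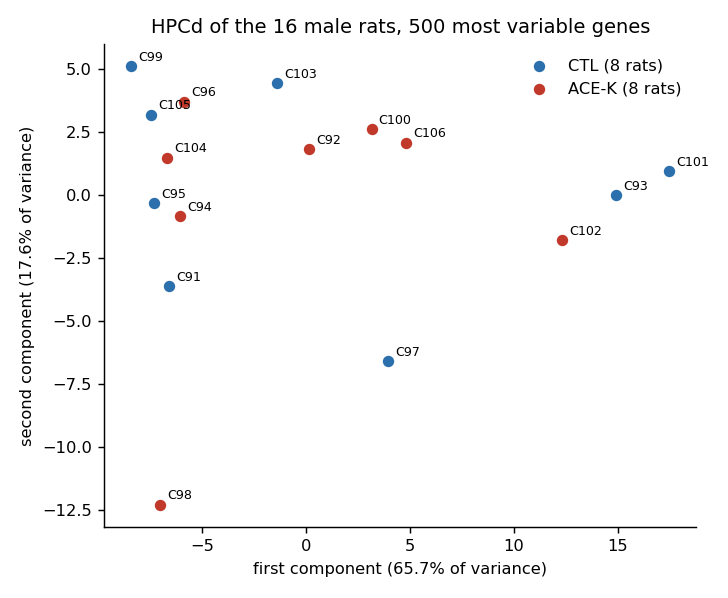
First against second principal component of the 16 male HPCd libraries (component scores, with the share of variance on each axis). Each point is a rat, red for ACE-K and blue for CTL, and C93, C101 and C102 lie to the right of the others, with C98 lowest.

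No gene differed between ACE-K and CTL rats after adjustment for the number of genes tested. By edgeR's quasi-likelihood test, 0 of 15704 tested genes (0%) had an adjusted p under 0.05, the smallest being 0.973. DESeq2's Wald test on the same genes likewise called 0, with a smallest adjusted p of 0.402 after its default filtering, so the 2 smallest values are not alike. At an unadjusted p under 0.05, edgeR called 785 genes (5%) and DESeq2 767. Of the 785, 545 (3.47% of tested genes) were higher and 240 (1.53%) lower in ACE-K rats, so 69.4% were higher. This excess depended on single rats, since without the CTL rat C93 373 genes were higher and 338 lower (52.5% higher), and without the ACE-K rat C98 670 were higher and 421 lower (61.4% higher). Without C93, C101 and C102 together, 343 were higher and 238 lower.

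The study's thresholds, an unadjusted p under 0.05 together with a log2 fold change of 0.4 or more in either direction, define the DEGs described here. There were 210 DEGs (1.34% of tested genes), of which 171 (1.09%) were higher and 39 (0.248%) lower in ACE-K rats. On counts simulated from these libraries, 211 genes left unchanged passed the same thresholds, among 15589 tested. Each gene was drawn independently there, without shifts shared within a rat, so the 211 cannot serve as the number to expect without a response. As no gene passed after adjustment, the number of DEGs alone is not read as a response to ACE-K. DESeq2 called 171 DEGs, and 162 of them were among the 210. The log2 fold change of the higher DEGs had a median of 0.68 and ranged from 0.40 to 3.71, and that of the lower DEGs had a median of -0.74 and ranged from -1.45 to -0.41. Over all tested genes, the absolute log2 fold change had a median of 0.0567 and a 90th percentile of 0.274. Nearest to the fold threshold, a DEG had a log2 fold change of 0.4008 and a gene outside it one of 0.3998.

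Most DEGs were genes of low expression. Their mean level over the 16 rats had a median of 0.733 CPM (read counts scaled to a common library size), against 17.2 CPM over all tested genes, which corresponds to a median of 15.5 counts per rat for a DEG and 359 for a tested gene. Of 2301 genes under 1 CPM, 92 were higher and 32 lower DEGs (5.39%). Of 3918 genes from 1 to 10 CPM, 63 were higher and 6 lower DEGs (1.76%). Of 7364 genes from 10 to 100 CPM, 15 were higher and 1 was lower (0.217%), and of 2121 genes at 100 CPM or more, 1 was higher and 0 were lower (0.0471%). The standard error of the log2 fold change had a median of 0.333 under 1 CPM and 0.0476 at 100 CPM or more, so a difference past the fold threshold was within the error of many low genes and far outside that of most abundant ones.

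**Figure D2:**
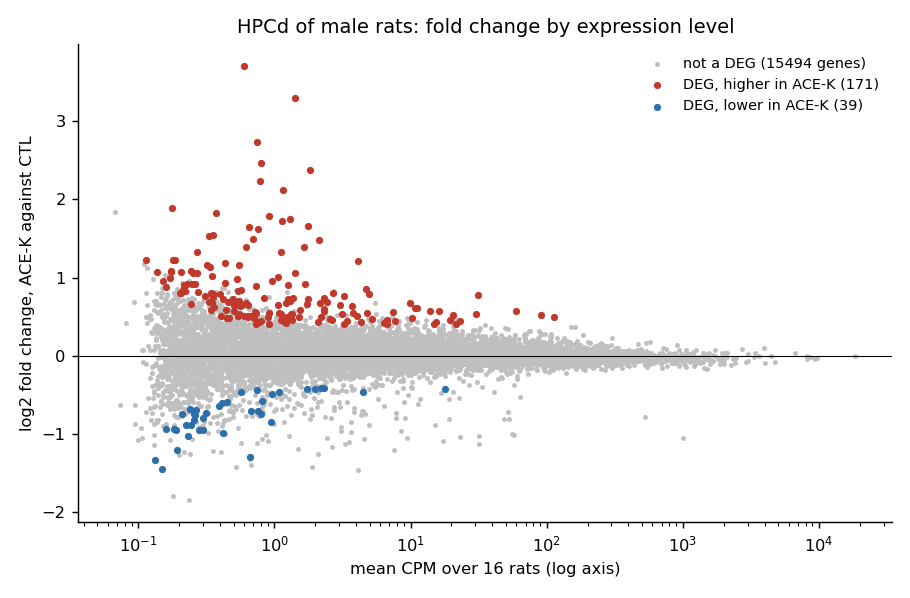
Log2 fold change of ACE-K against CTL (vertical axis) by mean CPM over 16 rats (horizontal log axis), 1 point per tested gene. The 171 higher DEGs (red) and 39 lower DEGs (blue) lie mostly at low CPM, where the grey points of the other genes also spread widest.

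A set of genes at 1 CPM or more passed the fold threshold without being DEGs, 151 in all, and 72.2% of them were lower in ACE-K rats, with a median log2 fold change of -0.65. In 87.2% of these lower genes, C93 and C101 were the 2 highest CTL rats and C102 was the highest ACE-K rat, the 3 rats that stood apart on the first component. Without these 3 rats, the same lower genes had a median log2 fold change of 0.32, with 82 above 0 and 27 below, 59 were still past the fold threshold in either direction, and 2 passed the DEG thresholds (edgeR). As the rats left out had the highest values in most of these genes, 2 of them CTL, the move upward follows from the choice and is a description only. In the plot of fold change by level, these lower genes are grey points below the axis, all but 2 of them under 100 CPM.

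The direction of the small differences varied with expression level. Without any choice by p, 55.2% of genes under 1 CPM, 59.7% from 1 to 10 CPM and 54.1% from 10 to 100 CPM had a log2 fold change above 0, but only 38.2% of genes at 100 CPM or more. The median log2 fold change in these classes was 0.048, 0.030, 0.0061 and -0.013. With DESeq2's size factors the shares were 54.8%, 58.0%, 50.7% and 34.7%, so the class from 10 to 100 CPM was close to an even split. In the same order of classes, 5.48%, 5.49%, 4.92% and 3.87% of tested genes had an unadjusted p under 0.05 (edgeR), beside 5% over all tested genes. Of these called genes, 74.6% were higher under 1 CPM, 85.1% from 1 to 10 CPM and 67.7% from 10 to 100 CPM. At 100 CPM or more, 23 were higher and 59 lower. As the share called at 100 CPM or more was below that over all tested genes, this split describes the genes called and tests nothing. The differences at this level were small, since the 5th and 95th percentiles of the log2 fold change were -0.10 and 0.08. Among genes at 100 CPM or more with an unadjusted p under 0.05, lower genes outnumbered higher ones in all 28 fits run, with between 5.80% and 41.5% higher. The counts themselves moved by over 1.5 times with single rats. They were 12 higher and 85 lower without C93, 13 and 84 without C96, 17 and 90 without C97, 22 and 158 without C98, and 15 and 41 without C102, and without C101 11 were higher (9.73% of those called). With DESeq2's size factors they were 15 and 81. Mean counts and detected IDs per library were also higher in ACE-K rats, though neither passed its test, and their part in the pattern was not tested. Genes within a library share its scaling and are not independent replicates.

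**Figure D3:**
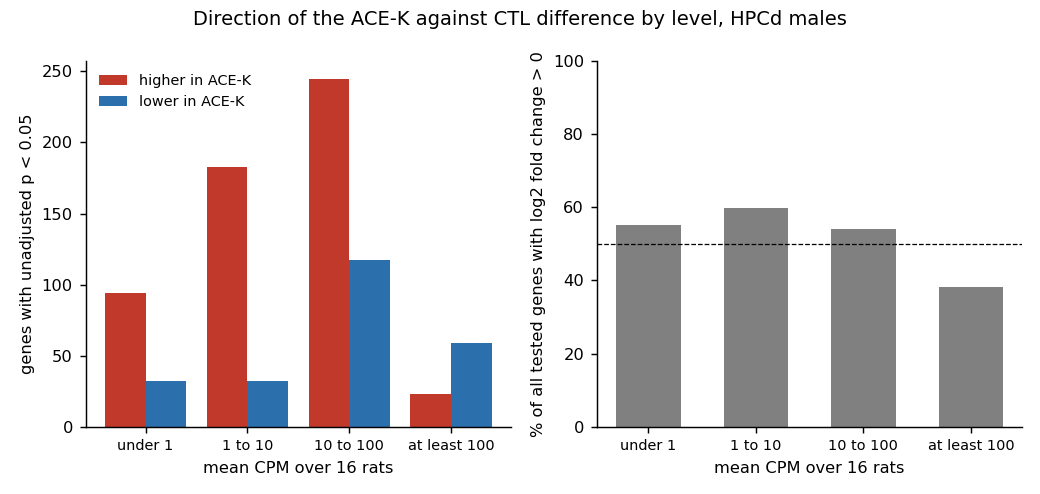
Left, number of genes with an unadjusted p under 0.05 that were higher (red) or lower (blue) in ACE-K rats, by mean CPM. Right, share (%) of all tested genes with a log2 fold change above 0, with a dashed line at 50, where genes at 100 CPM or more are at 38.2%.

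Few DEGs separated every ACE-K rat from the controls. Of the 171 higher DEGs, 39 had all 8 ACE-K rats above the CTL median, 71 had 7, and 61 had 6 or fewer. Of the 39 lower DEGs, 19 had all 8 ACE-K rats below the CTL median, 14 had 7 and 6 had 6 or fewer. All 8 ACE-K rats were beyond the CTL median in 698 of the tested genes (4.44%). The values of the groups did not overlap at all in 3 tested genes (0.0191%), of which 1 was a DEG. Since the DEGs were chosen on these rats, these counts describe them and test nothing.

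The ACE-K rat with the highest value differed between the higher DEGs. How often each rat led over all tested genes was not counted, so the counts that follow are a description only. C94 held the highest value of the ACE-K group in 54 of the 171 (31.6%), C100 in 33, C102 in 27, C98 in 20, C96 in 14, C106 in 10, C92 in 7 and C104 in 6. The mean z score of the higher DEGs, on log2 CPM over the 16 rats, was 0.85 in C94, 0.84 in C102 and 0.80 in C96, but 0.24 in C98 and 0.040 in C92. It was between -0.79 and -0.28 in the CTL rats. As these DEGs were chosen for being higher in these ACE-K rats, the groups lying apart follows from the choice and tests nothing. C92 was close to the mean of all 16.

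**Figure D4:**
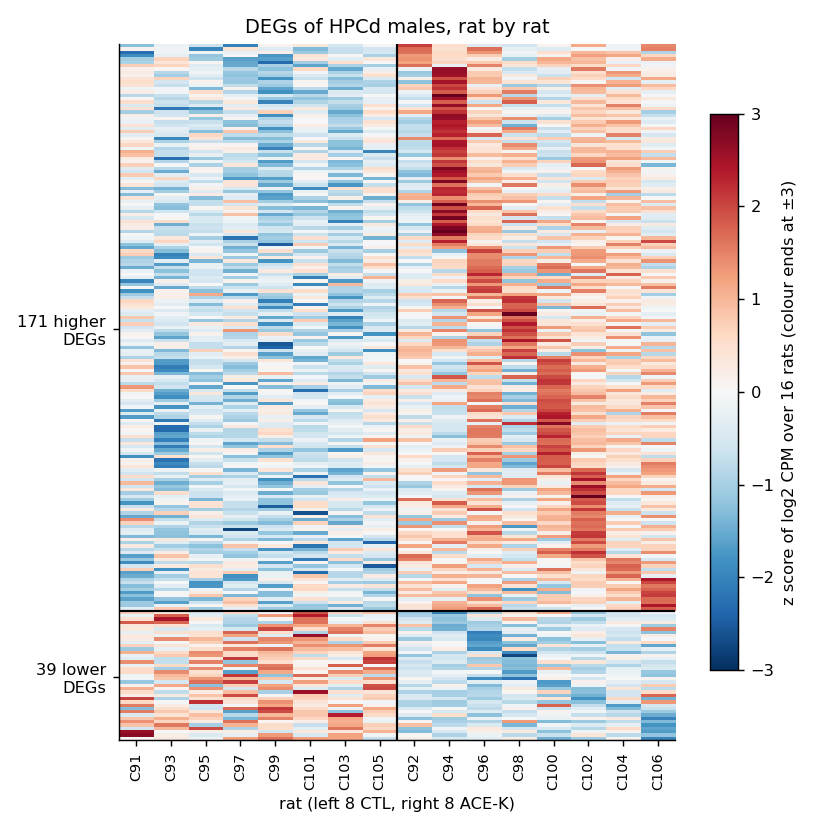
Z score of log2 CPM over 16 rats (colour, ends at ±3) for the 171 higher DEGs (top) and 39 lower DEGs (bottom), with CTL rats left and ACE-K rats right of the line. DEGs are sorted by the ACE-K rat with the most extreme value, which makes the dark blocks along the right part, and C94 has the tallest block with 54 DEGs.

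Among the 16 higher DEGs at 10 CPM or more, different rats led. In 7 of them C94 had the highest ACE-K value, C98 being second in 4 of these. In the other 9, C96 or C100 was highest. C94 was below the CTL median in 7 of these 9 and C98 in 8, although both were ACE-K rats. In the 7 DEGs led by C94, C92 was below the CTL median in 6 and C100 in 5. Over all 171 higher DEGs, C94 was below the CTL median in 23 of the 47 led by C96 or C100 and C98 in 24, while C100 was below it in 22 of the 54 led by C94. In the abundant DEGs, the high values were thus not in the same ACE-K rats throughout. As the DEGs were sorted by their highest ACE-K rat, part of this follows from the sorting. How often each rat was below the CTL median over all tested genes was not counted, so this is a description only.

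The DEG with the highest level was led by C100. It had between 57.6 and 212 CPM in ACE-K rats (median 128) and between 50.8 and 116.2 CPM in CTL rats (median 98.6). C96, C100, C102, C104 and C106 were above every CTL rat, C98 was the lowest ACE-K rat, and the groups overlapped (log2 fold change 0.50, SE 0.23, edgeR unadjusted p = 0.0417, n = 8 per group). Its ID lies outside the rule for naming.

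At least 2-fold differences were seen in 41 higher and 5 lower DEGs, with a median level of 0.599 and 0.193 CPM. None of the 46 was at 10 CPM or more. In 4 of the 41, a single ACE-K rat held over 50% of the summed CPM of its group, namely C94 in 2, C98 in 1 and C102 in 1. The DEG with the highest log2 fold change, 3.71, had 82.2% of the ACE-K signal in C102 alone.

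The IDs named here are the 2 higher and the 2 lower DEGs with the smallest unadjusted p. ENSRNOG00000029556 had between 0.885 and 3.27 CPM in ACE-K rats (median 1.505) and between 0.584 and 1.24 in CTL rats (median 0.872). C94 was far above the other ACE-K rats, C92 was lowest and inside the CTL range, and the other 7 ACE-K rats were above every CTL rat. Raw counts were 21 to 73 in ACE-K and 14 to 21 in CTL rats, with means of 1.65 ± 0.700 and 0.881 ± 0.186 CPM (SD, n = 8). The log2 fold change was 0.91 (SE 0.22, edgeR unadjusted p = 0.000741, adjusted p = 0.973).

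ENSRNOG00000004133 had between 2.03 and 3.99 CPM in ACE-K rats (median 2.70) and between 1.41 and 2.30 in CTL rats (median 1.87). C94 was again highest, C104 was the only ACE-K rat inside the CTL range, and all 8 ACE-K rats were above the CTL median. The means were 2.74 ± 0.576 and 1.85 ± 0.352 CPM (SD, n = 8), and the log2 fold change was 0.57 (SE 0.14, edgeR unadjusted p = 0.000895, adjusted p = 0.973).

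ENSRNOG00000004409 was the DEG whose groups did not overlap. It had between 1.67 and 2.29 CPM in ACE-K rats (median 2.02), lowest in C98, and between 2.46 and 2.90 CPM in CTL rats (median 2.64). The lowest CTL rat, C103, was thus above the highest ACE-K rat, C92. The means were 2.00 ± 0.191 and 2.66 ± 0.150 CPM (SD, n = 8). The log2 fold change was -0.41 (SE 0.085, edgeR unadjusted p = 0.000162, adjusted p = 0.973). It was near the fold threshold, and in 5 of the alternative fits its absolute log2 fold change was under 0.4, with the smallest change, -0.38, without C98.

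ENSRNOG00000047459 rested on few reads. It had between 0 and 4 counts in ACE-K rats, with 0 in C96, and between 2 and 7 in CTL rats. The levels were 0.115 ± 0.0684 and 0.271 ± 0.0899 CPM (SD, n = 8), the groups overlapped, and the log2 fold change was -1.20 (SE 0.37, edgeR unadjusted p = 0.00463, adjusted p = 0.973).

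**Figure D5:**
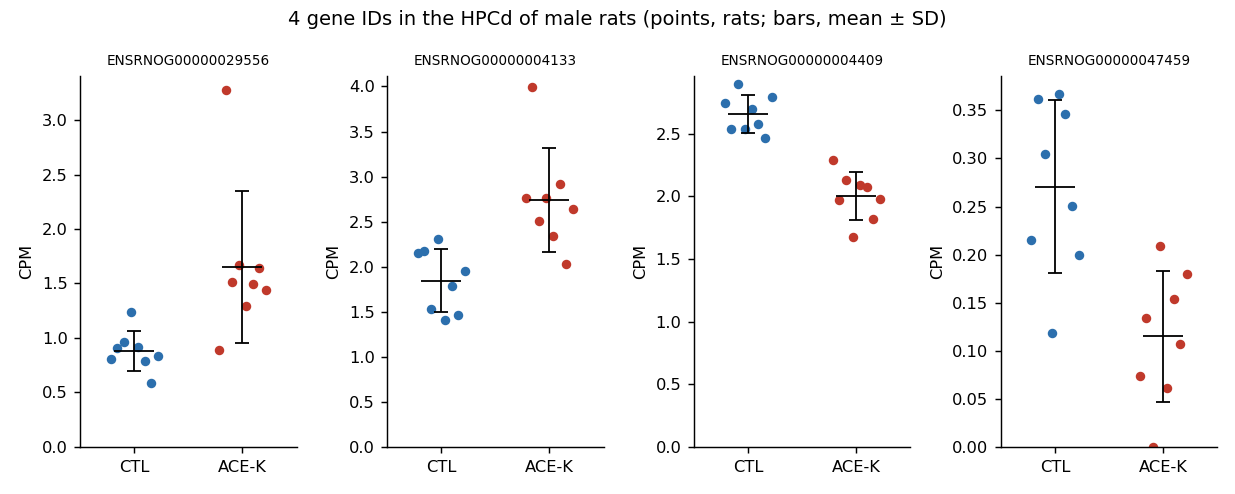
CPM of the 4 named IDs in the HPCd of each CTL rat (blue) and ACE-K rat (red), with the mean and SD of each group of 8 as black bars and every vertical axis starting at 0. The single high red points of the first 2 IDs are C94 (3.27 and 3.99 CPM), and only the third ID has groups that do not overlap.

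None of the 4 IDs was among the 207 DEGs of the female HPCd (1.32% of 15651 genes tested). The log2 fold change in females was 0.12 (SE 0.26) for ENSRNOG00000029556, -0.13 (SE 0.22) for ENSRNOG00000004133, -0.07 (SE 0.12) for ENSRNOG00000004409 and -0.24 (SE 0.37) for ENSRNOG00000047459, with edgeR unadjusted p values between 0.531 and 0.659. The difference between the male and female log2 fold changes was 0.79, 0.71, -0.34 and -0.97, with adjusted p values of 0.534, 0.446, 0.499 and 0.629 (edgeR, Treatment × Sex interaction), so a difference between the sexes was not established for any of the 4. Of the 171 higher male DEGs, 165 were tested in females, where their log2 fold changes had a median of -0.18 (quartiles -0.48 and 0.01), with 43 above 0 and the rest below, beside 52.2% above 0 over all genes tested in females. In females, 2 of them were DEGs higher in ACE-K (34 genes in all, 0.217%) and 28 DEGs lower (173 genes in all, 1.11%). Of the 39 lower male DEGs, 36 were tested in females, with a median of 0.08, 21 above 0 and 15 below. In females, 3 of them were DEGs higher in ACE-K and 1 was a DEG lower. Over all genes, the interaction had an unadjusted p under 0.05 in 1374 of 16012 (8.58%) and an adjusted p under 0.05 in 0.

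The ACB libraries held about 2 orders of magnitude fewer counts than the HPCd libraries. In the ACB of the same males, the 4 named IDs had at most 2 counts in any rat. They could not be followed there, and these counts do not show that they are unexpressed. Of the 171 higher DEGs, 27 passed the count filter in the ACB and had a median log2 fold change of 0.13, with 16 above 0 and 11 below, and 1 was also a DEG there. Of the 39 lower DEGs, 5 passed it and had a median log2 fold change of 0.086, with 4 above 0 and 1 below. Over all genes tested in the ACB of males, 48.7% were above 0. In the ACB of males, 217 of 5262 genes were DEGs (4.12%). All 16 male ACB libraries were used, whereas the paper removed 1 ACE-K sample of the ACB after PCA, which its text does not name. Neither does the text give the sex of that rat. An alternative fit without the ACE-K rat C106 gave 222 DEGs, but whether C106 was the sample the paper removed is not known.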

How the data were processed

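RNA of HPCd punches was sequenced as single reads, and per the paper's methods the authors used FastQC, Trimmomatic, STAR on Rnor6.0 and HTSeq. Versions, annotation release and strand setting are not given in the sources used here. Reads of overlapping and antisense genes may therefore have been set aside or given to the wrong gene. The authors deposited raw counts for 32623 Ensembl IDs, 1 column per rat, without normalization. HTSeq's summary lines were left out, and between 20.4% and 22.9% of reads had no gene. All columns were matched to rats by animal number. Each rat was 1 replicate. Pairs within a group differed by more than sampling noise (chi-square per degree of freedom 6.29 to 44.9 over 56 pairs). No batch was labelled.

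The counts were normalized by TMM and tested by the quasi-likelihood test of edgeR 4.0.16 in R 4.3.3, with DESeq2 1.42.0 as an alternative. A gene was tested if 3 or more rats had a normalized count of 5 or more. The study's filter does not say in how many samples this count applies, so 3 rats is 1 reading of it. The study used DESeq2. CPM are counts scaled to a common normalized library size, and z scores used log2 (CPM + 0.5). Adjusted p values of edgeR are Benjamini-Hochberg over all genes tested, and those of the library measures over the 8 measures. Those of DESeq2 are its own, after its default filtering, which can leave genes out of the adjustment. The standard error was taken from the F statistic. PCA used DESeq2's variance-stabilized counts. The naming rule took 10 DEGs in each direction by unadjusted p, and by ID if no symbols were given. Of these, 2 in each direction are printed. Gene lists, cell type markers and the mitochondrial share were planned but not applied, because no symbols were given. The DEG thresholds, the rats and the analyses were chosen with earlier results of these data known. The description of which rats led the abundant DEGs, the split by level and the genes past the fold threshold that were not DEGs were chosen after the values were seen.

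On simulated counts with 200 genes changed 2-fold, 187 were called DEGs, all with the right sign, and 84.5% had an adjusted p under 0.05. Of the unchanged genes, 211 were also called DEGs, among 15589 tested. The changed genes were drawn at random from the tested genes, whose median level was 17.2 CPM, against 0.733 CPM for the DEGs. Each gene was drawn independently, without shifts shared within a rat, and most DEGs changed less than 2-fold. The shares found on simulated counts therefore do not carry over to the DEGs described here. Alternatives were another tool, scaling, filters, a fit of the 4 HPCd groups, covariates, robust estimation and leaving out each rat. The fit without C93, C101 and C102, the library number covariate and the shares by level with size factors were added after the data were seen.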

Additional observations from a re-analysis of the deposited data

Results flagged for a closer look

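Among 24 groups of 8 rats examined for a single rat far from the rest (Dixon's test at the 95% level), 3 had one. Chance passes this test in about 1 of 20 independent groups with measures fixed beforehand. Here the named IDs were chosen by p in these same rats and the components were fitted to them. That rate is therefore no benchmark for the 3, which are a description only. On the second component, the ACE-K rat C98 was at -12.3, with the other ACE-K rats between -1.79 and 3.71. For C94, also an ACE-K rat, the value was 3.27 CPM of ENSRNOG00000029556, with the others between 0.885 and 1.67 CPM, and 3.99 CPM of ENSRNOG00000004133, with the others between 2.03 and 2.92 CPM. Both IDs were still DEGs without C94.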

How the results depend on the processing

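The count of DEGs depended most on the filter for low counts. Without a filter there were 451 DEGs (308 higher, 143 lower), and with at least 10 counts in every rat 74 (66 higher, 8 lower). Leaving out each rat in turn gave 189 to 265 DEGs, with 127 to 219 higher and 34 to 73 lower, the 73 without C102, when 63.5% were higher. In these 16 fits 78 of the 210 DEGs remained throughout (68 higher, 10 lower), and leaving out C94 lost the most, 69. Without C93, C101 and C102 there were 189 DEGs, of which 110 were among the 210, and with body weight as covariate 214, of which 125 were. The share higher among genes with an unadjusted p under 0.05 was 62.4% with DESeq2's size factors, 60.6% with DESeq2 and 52.5% to 73.5% without each rat in turn, lowest without C93 (52.5%), C96 (55.6%), C97 (56.9%) and C101 (58.4%). No fit of these gave an adjusted p under 0.05. The log2 fold change of ENSRNOG00000004409 was -0.39 with body weight as covariate, and the other 3 named IDs stayed DEGs in each fit that tested them. The first component held 40.3% of the variance with all tested genes. The body weight difference was -18.5 to -9.94 g without each rat in turn. Other settings for gene lists were not run, since IDs were not paired with symbols. No paired analysis was possible because ACE-K and CTL rats carry different numbers. The cause of these shifts was not tested beyond the fewer or more genes each filter let in.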
